A study of Homo sapiens with 16 samples.

Results

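Tunicamycin (Tm) blocks N-linked glycosylation of proteins in the endoplasmic reticulum (ER), and ISRIB is a small molecule that blocks the effects of eIF2α phosphorylation. The comparison described here set ribosome-protected fragments (RPFs) of HEK293T cells given both compounds against those of untreated cells, and asked which mRNAs still differed in ribosome occupancy when ISRIB was present during ER stress. HEK293T is an established human cell line derived from embryonic kidney. The untreated cells received neither compound. The Tm + ISRIB cells received 1 µg/ml Tm and 200 nM ISRIB together for 1 hr. Cells given 1 µg/ml Tm alone or 200 nM ISRIB alone for 1 hr appear only for reference. Each of the 4 treatments had 2 biological replicates, a and b, and all cells were given cycloheximide before lysis to hold ribosomes on the mRNA. The label of the cell line was not checked against marker genes, because symbols were at hand for only part of the transcripts.

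Transcripts were taken when their Ribo-Seq entry gave a coding length and when at least 10 counts fell on them in 2 or more of the 4 libraries compared. This held for 12382 of 21520 transcripts with a coding length. Of these, 11784 reached 10 counts in all 4 libraries, 153 only in both untreated libraries and 2 only in both Tm + ISRIB libraries. Just inside the limit, the NPIP transcript uc021tdy.1 had 17 and 7 counts in the untreated libraries and 35 and 15 in Tm + ISRIB. Just outside, the NPIP transcript uc010vag.1 had 8 and 3 against 20 and 8. The untreated libraries held 8322787 (a) and 11988276 (b) counts on these transcripts and the Tm + ISRIB libraries 6114704 and 6791816. Symbols were available for 1991 of them, mostly genes of chromosomes 1, 2 and 3, so the gene classes below hold only part of each family.

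In the integrated stress response (ISR), kinases such as PERK phosphorylate eIF2α, and initiation on most mRNAs falls. A few mRNAs with upstream open reading frames (uORFs), among them those of ATF4, CHOP (DDIT3) and GADD34 (PPP1R15A), are translated more under these conditions. ISRIB acts on eIF2B, the exchange factor that phosphorylated eIF2 inhibits, and it leaves the phosphorylation itself in place. An RPF count of a coding sequence follows both the amount of an mRNA and the number of ribosomes on it. Counts were scaled within each library, so all changes are relative to the other transcripts, and the total output of protein synthesis was not assessed.

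RPFs differed between Tm + ISRIB and untreated cells for 324 of the 12382 transcripts (2.62%) at a false discovery rate (FDR) under 0.1 in edgeR's quasi-likelihood test. Of these, 198 were higher (1.60%) and 126 lower (1.02%). Changes were small, with a median absolute log2 fold change of 0.47 among the called transcripts and 178 of them below 0.5. More than 2-fold changes were called for 55 transcripts, 49 of them higher (0.396%) and 6 lower. Over all 12382 transcripts the median log2 fold change was 0.00, and an unadjusted p under 0.05 was found for 1601. The calls depended on single libraries. Without Tm + ISRIB replicate a, 20 transcripts were called and 18 of the 324 remained. Without untreated replicate a, 697 were called, without untreated replicate b 131 and without Tm + ISRIB replicate b 223. For a single transcript, the exact permutation test of 2 libraries against 2 cannot give a two-sided p below 0.33, so every call rests on the spread that edgeR estimated across transcripts.

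**Figure D1:**
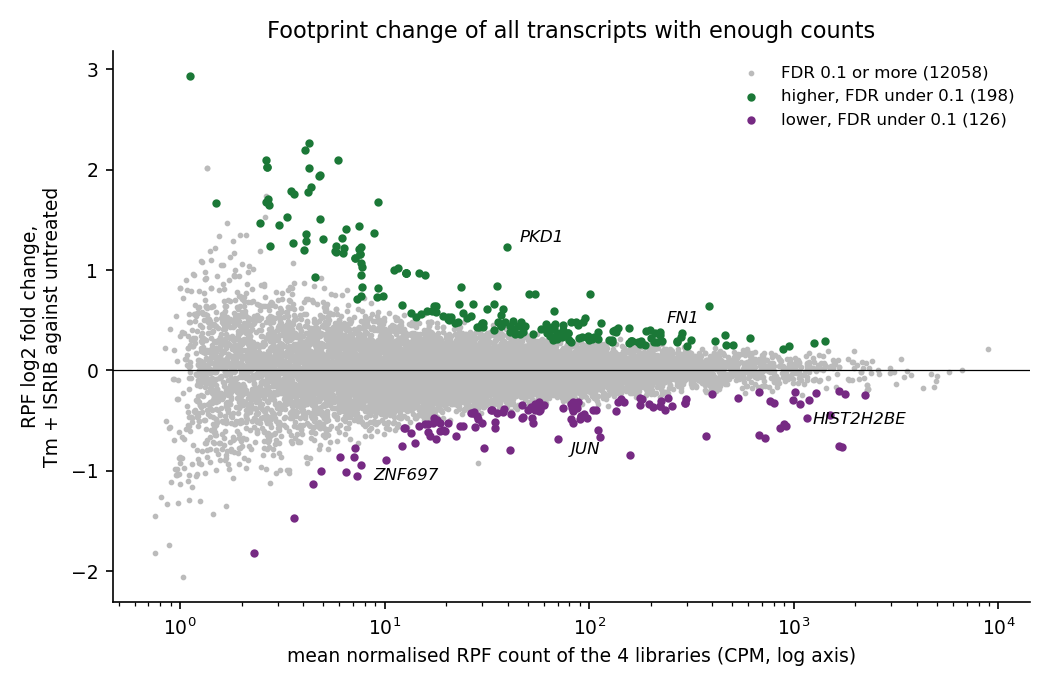
RPF log2 fold change in Tm + ISRIB against untreated cells (y-axis) over the mean normalised RPF count of the 4 libraries in CPM (x-axis, log scale). Each point is 1 of 12382 transcripts, coloured where the FDR is under 0.1, and the changes above 2-fold lie mostly at low counts.

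The 4 known translational targets of the ISR were near their untreated level. ATF4, the transcription factor at the centre of the response, had 77.6 and 58.6 CPM (normalised counts scaled by library size) in the untreated libraries and 51.1 and 63.0 CPM in Tm + ISRIB, against 433 and 441 CPM in Tm alone. The Tm + ISRIB levels of ATF4 overlapped the untreated levels, and its log2 fold change was -0.24 ± 0.11 (SE), with an unadjusted 95% interval from -0.47 to -0.02 and an edgeR adjusted p of 0.34. Without untreated replicate b, ATF4 was called lower, at -0.44 with an edgeR adjusted p of 0.051, and it was not called with any other library left out. DDIT3, which encodes the stress transcription factor CHOP, had 2.14 and 2.64 CPM in untreated cells, 3.27 and 1.92 CPM in Tm + ISRIB, and 9.37 ± 0.50 CPM (SD, n = 2) in Tm. Its log2 fold change of 0.08 has an interval from -0.63 to 0.80, so at this depth a shift of either sign remains possible. PPP1R15A, the phosphatase subunit GADD34 that recruits PP1 to eIF2α, had 5.47 and 5.36 CPM in untreated cells and 5.06 and 6.80 CPM in Tm + ISRIB, a log2 fold change of 0.14 ± 0.25. ATF5, another uORF-controlled transcription factor, had 1.43 and 1.28 CPM in untreated cells and 1.96 and 2.37 CPM in Tm + ISRIB. Both Tm + ISRIB values of ATF5 lay above both untreated values, but the counts were 12 to 16 per library and the change (0.69 ± 0.40) did not pass the test, with an edgeR adjusted p of 0.49.

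Pseudogene copies share 30-base windows with ATF4 (63.5% of its windows) and with PNRC2 (71.9%), a uORF target below, and with reads of this length the copies cannot be told apart in these windows. The 7 further uORF targets had log2 fold changes between -0.41 and 0.49, with a median of 0.11, and 0 of the 11 ISR targets passed the FDR of 0.1. BCL2L11 (the apoptosis regulator BIM) had 4.04 and 4.59 CPM in untreated cells and 5.88 and 6.36 CPM in Tm + ISRIB, a log2 fold change of 0.49 ± 0.27. UCP2, a mitochondrial carrier, had 11.3 and 9.18 CPM against 15.7 and 11.5 CPM. The levels of BCL2L11 and UCP2 did not overlap between the groups, which held for 41.3% of all transcripts. SAT1, the polyamine acetyltransferase and the uORF target with the most counts, had 86.1 and 72.5 CPM against 80.2 and 89.5 CPM. PTP4A1, a phosphatase, had 18.2 and 20.5 CPM against 19.9 and 19.5 CPM. PNRC2, a partner in mRNA decay, had 13.0 and 9.10 CPM against 10.8 and 12.6 CPM. The levels of these 3 genes overlapped, as did those of C7orf31, with 1.43 and 1.36 CPM against 1.14 and 2.51 CPM, and of SLC35A4, a nucleotide sugar transporter family member, with 1.66 and 2.21 CPM against 1.96 and 1.04 CPM. While its footprints overlapped, PNRC2 mRNA was called higher in Tm + ISRIB, with a log2 fold change of 0.57 (edgeR adjusted p = 0.026). It was the 1 of 7 uORF targets called in mRNA (12.7% of all transcripts tested were).

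Tested directly against Tm alone, RPFs in Tm + ISRIB were lower for 10 of these 11 targets, where 8.04% of all transcripts were lower in that comparison. The log2 differences were -2.93 for ATF4 (edgeR adjusted p = 8.8e-19), -2.43 for SLC35A4, -2.21 for ATF5, -1.87 for DDIT3, -1.85 for PTP4A1 and -1.29 for PPP1R15A. C7orf31 (-1.05, edgeR adjusted p = 0.15) was the target that did not pass. The study had chosen the uORF targets from its Tm libraries, so the direction of their differences from Tm is not independent evidence.

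**Figure D2:**
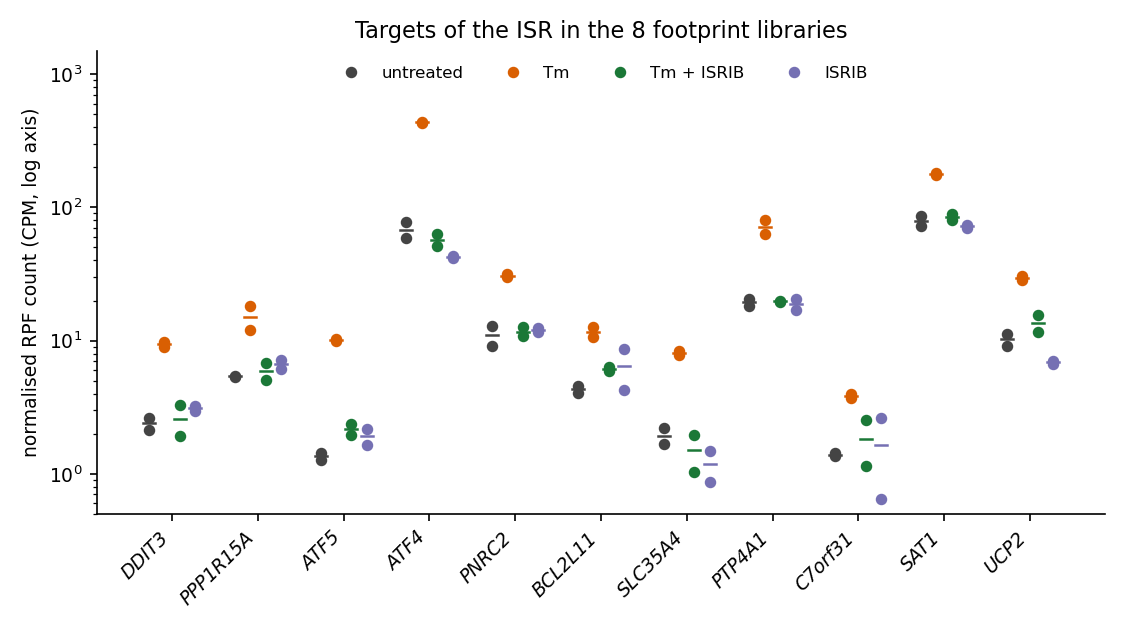
Normalised RPF counts in CPM (y-axis, log scale) of the 11 ISR targets (x-axis) in the 8 footprint libraries, with 1 point per library and a bar at each mean of 2. The Tm points stand above the others for every gene, while Tm + ISRIB points lie among or beside the untreated points.

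The lists that the study drew from Tm-treated cells were followed as well. They were chosen on these samples and share the untreated libraries, so their values are given side by side. Of the 59 transcripts listed as rising more than 2-fold in Tm, 40 had enough counts. Their median log2 fold change was 1.30 in Tm and 0.47 in Tm + ISRIB, and 11 were called higher in Tm + ISRIB (27.5%, against 1.60% of all transcripts) and 0 lower. Of these 11, 8 are in the list of multi-copy gene families described below, and 0 of the 40 were called higher by DESeq2, without untreated replicate b or without Tm + ISRIB replicate a. DESeq2 gave an adjusted p to 27 of the 50 transcripts with a symbol that edgeR called, so its 0 can also mean that none was given. Of the 19 transcripts listed as falling, 15 had enough counts, with a median log2 fold change of -1.11 in Tm and -0.14 in Tm + ISRIB, and 0 were called. VANGL2, a membrane protein of planar cell polarity, changed by -1.28 in Tm and by -0.15 in Tm + ISRIB on the log2 scale, and MMP15, a membrane-bound metalloproteinase, by -1.33 and -0.06. MATK, a tyrosine kinase (-0.79), and PTPN21, a phosphatase (-0.70), had the lowest values in Tm + ISRIB, with edgeR adjusted p of 0.35 and 0.41.

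JUN, a subunit of the AP-1 transcription factor, was the gene with the lowest adjusted p among the named falls. It had 682 and 1088 counts in the untreated libraries and 347 and 351 in Tm + ISRIB, which correspond to 81.1 and 92.5 CPM against 56.6 and 51.9 CPM. Both Tm + ISRIB values lay below both untreated values. The log2 fold change was -0.68 ± 0.10 (edgeR adjusted p = 0.00029), and JUN mRNA, with a log2 fold change of 0.16 and an edgeR adjusted p of 0.26, was not called. Of the 50 called transcripts with a symbol, JUN was the only one that passed the FDR of 0.1 in every fit made, with adjusted p up to 0.009. In Tm alone and in ISRIB alone, which share the untreated libraries, its log2 fold changes were -0.34 and -0.36. JUN was the only called member of 25 immediate early and labile genes, whose median was 0.05. CYR61, a matricellular protein, had 0.37 (adjusted p = 0.14), and IER5, another immediate early gene, -0.28 (adjusted p = 0.56).

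ZNF697, a zinc finger protein, had 9.63 and 10.5 CPM in untreated cells and 5.22 and 5.32 CPM in Tm + ISRIB, the largest named fall at -0.94 ± 0.21 (edgeR adjusted p = 0.019). Its groups did not overlap, but only 32 and 36 counts lay behind the Tm + ISRIB values. PRPF38A, a spliceosome component, gave different values for 2 transcripts. The shorter one, with 127 counted codons, had 38.3 and 43.3 CPM against 24.0 and 33.0 CPM and fell by 0.52 on the log2 scale, while the longer one had a log2 fold change of -0.17 and an edgeR adjusted p of 0.37. STX6, a SNARE protein of the trans-Golgi network, had 18.4 and 18.9 CPM against 13.9 and 12.0 CPM. GNG12, a G protein γ subunit, had 45.3 and 41.4 CPM against 28.7 and 35.8 CPM. TMSB10, which binds actin monomers, had 126 and 110 CPM against 93.4 and 85.8 CPM, and MARCKSL1, a membrane-associated protein of the MARCKS family, had 215 and 247 CPM against 176 and 184 CPM. In each of these genes both Tm + ISRIB levels were below both untreated levels. AURKAIP1, a mitochondrial ribosome protein, fell by 0.28 and C1orf198, a gene of unclear function, by 0.41 on the log2 scale. C1orf198 mRNA was also called lower, at -0.39 (edgeR adjusted p = 0.05). The mRNA of ZNF697, GNG12, TMSB10, MARCKSL1, AURKAIP1 and the shorter PRPF38A transcript was not called. Without Tm + ISRIB replicate a, the adjusted p of ZNF697 was 0.31, of PRPF38A 0.58 and of MARCKSL1 0.33, with log2 fold changes of -0.93, -0.31 and -0.33.

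Histones were the gene class with the lowest median. All 13 histone transcripts with enough counts had log2 fold changes below 0, from -0.34 to -0.09 with a median of -0.19, and 3 were called lower (23.1%, against 1.02% of all transcripts). The 13 transcripts carry 10 symbols, and the median share of their windows that occur in other genes was 90.9%. They need not be separate falls. HIST2H2BE, an H2B gene, had 1163 and 1221 CPM in untreated cells and 923 and 965 CPM in Tm + ISRIB (-0.34 ± 0.06, edgeR adjusted p = 0.004). HIST2H2BF, also H2B, had 1306 and 1312 CPM against 1040 and 1090 CPM (-0.30 ± 0.06), and HIST2H2AC, an H2A gene, 1378 and 1386 CPM against 1144 and 1216 CPM (-0.23 ± 0.06). The groups of these genes were apart by more than the distance between replicates. Histone mRNA moved the other way, with 11 of 12 transcripts called higher in the mRNA-Seq libraries (7.49% of all transcripts tested were) and log2 fold changes of 0.91 for HIST2H2BE, 0.78 for HIST2H2BF and 0.61 for HIST2H2AC. Without untreated replicate b, 0 of these mRNA rises were called, and the median was 0.40 instead of 0.43. Without Tm + ISRIB replicate a, 0 of the RPF falls were called and the median was -0.16. With the length trend of each library removed, the RPF median was -0.12.

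Histone genes are near-identical copies, and reads of footprint length often cannot be placed on a single copy. Of the 30-base windows of the annotated coding sequence (GENCODE v29, GRCh38), 73.9% of those in HIST2H2BE and 90.9% of those in HIST2H2BF also occur in a transcript of another gene. The stretches below show how close the copies are. Each is the first in-frame 30-base stretch at the same distance from the start codon, from coding base 67 in the H2B genes and 1678 in the GOLGA8 genes, within 1 exon of both, that differs by the fewest bases among stretches with at least 1 difference, and capitals mark the base that differs.
HIST2H2BE (chr1:149886545-149886574, minus strand, coding exon): cagaagaaAgacggcaagaagcgcaagcgc
HIST2H2BF (chr1:149812228-149812257, minus strand, coding exon): cagaagaaGgacggcaagaagcgcaagcgc
GOLGA8A (chr15:34381516-34381545, minus strand, coding exon): caggacaaccctactgcacagccagtcGtg
GOLGA8B (chr15:34527737-34527766, minus strand, coding exon): caggacaaccctactgcacagccagtcCtg
The whole coding sequences of GOLGA8A and GOLGA8B differ at 1 of 1809 bases, and the 2 transcripts carry equal counts in all 8 libraries. They are therefore the same reads listed under both symbols. In all, 82 of the 12382 transcripts had the counts of another transcript in every library.

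Several of the largest rises among transcripts with a symbol lay in such families, which held 11 of the 49 rises above 2-fold, while 17 of the 49 had a symbol. Entries with the same or nearly the same counts, such as GOLGA8A and GOLGA8B, were counted separately here, so these are not all separate rises. Of 53 transcripts of multi-copy gene families, 13 were called higher (24.5%, against 1.60% of all transcripts) and 0 lower. The list of families was made with earlier results of these data known. It includes transcripts that the study listed as higher in this same contrast, among them AK310228, NPIP and PKD1. The share is therefore not independent evidence. None of the 53 was called without untreated replicate b, without Tm + ISRIB replicate a, or by DESeq2. Of the 50 called transcripts with a symbol, DESeq2 gave an adjusted p to 27, so no call by DESeq2 can also mean that none was given. AK310228 (uc010bvu.2), a transcript known only by this name, had 2.38 and 0.68 CPM in untreated cells and 11.8 and 2.22 CPM in Tm + ISRIB, from 20, 8, 72 and 15 counts. Its Tm + ISRIB replicate b lay below untreated replicate a, so the groups overlapped although the fitted change was 2.26 ± 0.52 (edgeR adjusted p = 0.02). NPIP (uc002dcy.4), of the nuclear pore complex interacting protein family, had 1.55 and 0.51 CPM against 6.37 and 2.07 CPM (2.10 ± 0.49). FLJ00285, which lay outside the list of families and has no value for shared windows, had 3.57 and 1.11 CPM against 14.9 and 4.14 CPM. AGAP4, an ARF GTPase-activating protein with 96.5% of its windows in other genes, had 4.52 and 2.64 CPM against 11.8 and 5.77 CPM. In all of these, replicate a was above replicate b in both treatments.

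PKD1 encodes polycystin-1, a large membrane protein mutated in polycystic kidney disease, and 50.2% of its windows occur in other genes, 42.4% in the pseudogene PKD1P5. It had 269 and 189 counts in the untreated libraries and 465 and 234 in Tm + ISRIB, or 32.0 and 16.1 CPM against 75.9 and 34.6 CPM. Tm + ISRIB replicate b was only slightly above untreated replicate a, and the log2 fold change of 1.23 ± 0.26 (edgeR adjusted p = 0.011) was 0.57 with an adjusted p of 0.59 without Tm + ISRIB replicate a. ANKRD36, with 67.0% of its windows elsewhere, had 8.32 and 6.55 CPM against 17.8 and 11.8 CPM. GOLGA8A and GOLGA8B, golgins, had 5.94 and 3.57 CPM against 14.4 and 6.51 CPM. STARD9, a kinesin-like protein, had 6.54 and 1.87 CPM against 14.2 and 7.395 CPM although none of its windows occurs elsewhere, and PCNXL2, a pecanex-like membrane protein, 2.97 and 1.87 CPM against 7.84 and 3.85 CPM.

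Among the 49 transcripts called more than 2-fold higher, Tm + ISRIB replicate a exceeded replicate b in 45 and untreated replicate a exceeded b in 43, with median log2 ratios of replicate a to b of 1.01 and 0.72. The median of their counts summed over the 4 libraries was 133, against 833 for all transcripts. Of the 39 with an mRNA value, 0 were called higher in mRNA and 3 lower, where 891 and 589 of all 11099 transcripts with an mRNA value were. Without untreated replicate b, 10 transcripts were called more than 2-fold higher, and without Tm + ISRIB replicate a 3 were. The part that differences between single libraries play in these rises was not tested. The study drew a list of 9 transcripts from this same contrast, and among them DESeq2 gave an adjusted p only to PKD1. Of these, 8 had enough counts and all 8 were called higher, which is not independent evidence, and 0 were called by DESeq2, without untreated replicate b or without Tm + ISRIB replicate a.

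**Figure D3:**
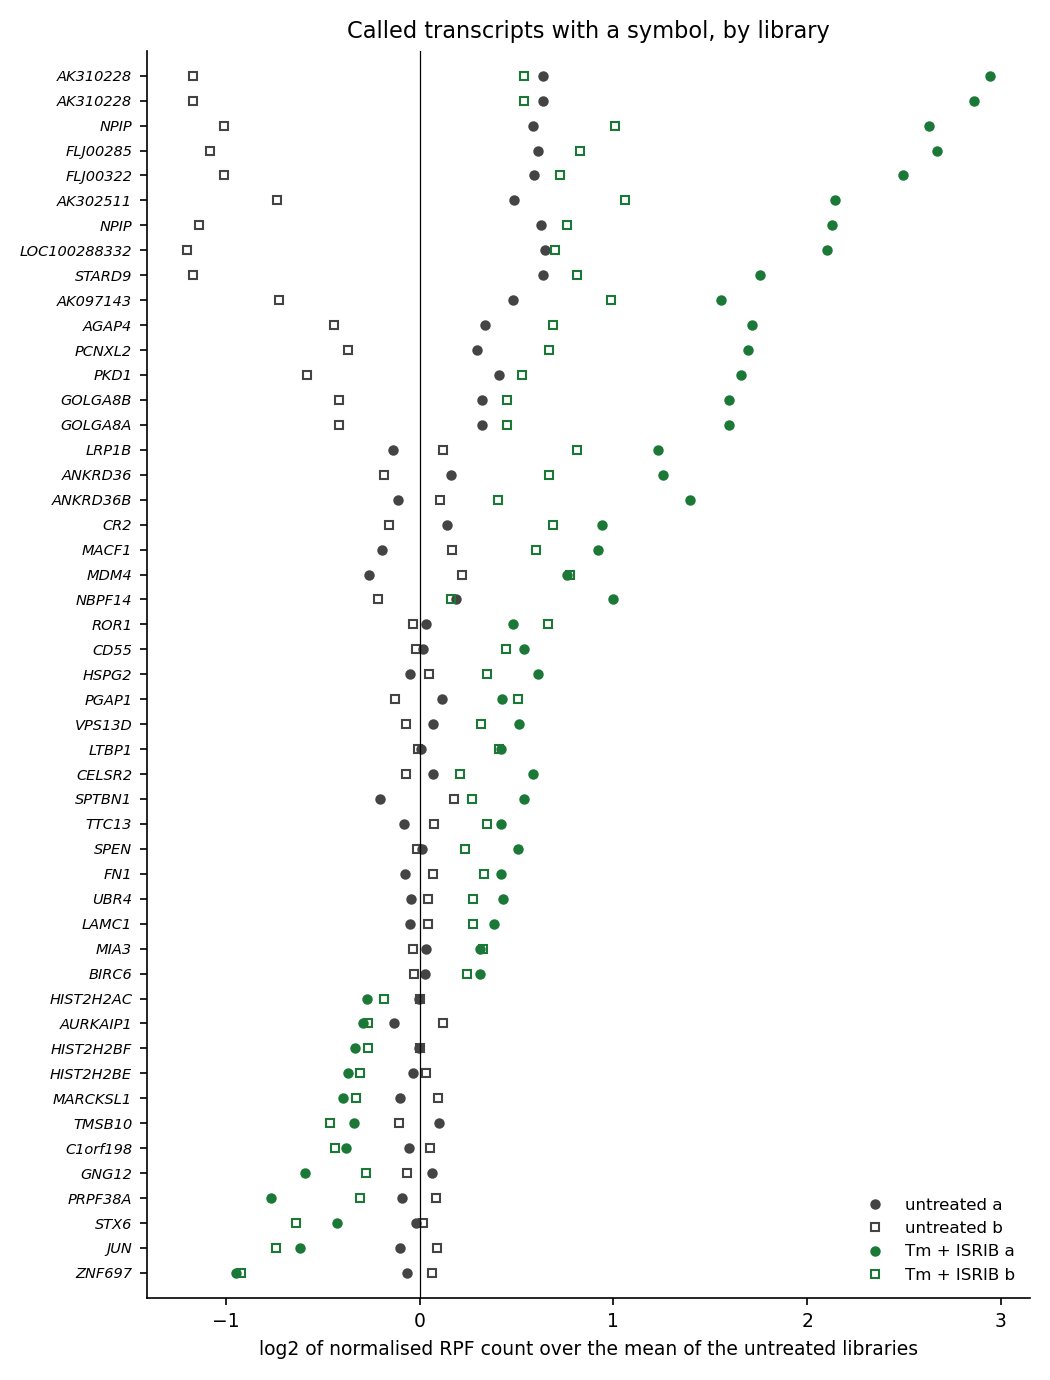
Normalised RPF count of each library relative to the untreated mean (x-axis, log2) for 49 of the 50 called transcripts with a symbol (y-axis), ordered by fitted change. Filled points are replicates a and open points replicates b, and in the upper rows replicate a lies far to the right of replicate b in both treatments.

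Surface and matrix proteins held further rises. Of 46 transcripts of cell surface receptors, adhesion and matrix proteins, 6 were called higher (13%, against 1.60% of all) and 0 lower, 37 had log2 fold changes above 0, and the median was 0.19. CD55, a membrane-anchored regulator of complement, had 35.6 and 34.7 CPM in untreated cells and 50.9 and 47.9 CPM in Tm + ISRIB (0.49 ± 0.11, edgeR adjusted p = 0.013). FN1, the matrix protein fibronectin, had 173 and 190 CPM against 243 and 229 CPM (0.38 ± 0.09, adjusted p = 0.02). HSPG2, the basement membrane proteoglycan perlecan, had 37.3 and 40.0 CPM against 58.9 and 49.3 CPM. In CD55, FN1 and HSPG2 the groups were separate, although the Tm + ISRIB replicates of HSPG2 were as far apart as the groups. ROR1, a receptor tyrosine kinase-like protein, had 14.6 and 14.0 CPM against 19.9 and 22.6 CPM (0.58 ± 0.15). ROR1 mRNA was also called higher, with a log2 fold change of 0.49 (edgeR adjusted p = 0.07). It was the 1 of 45 class members with an mRNA value called higher in mRNA (7.49% of all transcripts tested were). Another 2 were called lower, and the class median in mRNA was -0.10. LAMC1, a laminin chain, had 241 and 257 CPM against 325 and 301 CPM, and CELSR2, a cadherin, 38.8 and 35.2 CPM against 55.5 and 42.7 CPM. Without Tm + ISRIB replicate a, 0 of the 46 were called and the median was 0.16. DESeq2 called 2 of the 46. With the length trend of each library removed, 2 were called and the class median was 0.16.

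The same class had a median of -0.12 in Tm alone against untreated cells. Set directly against Tm, 17 of the 46 were higher in Tm + ISRIB and 0 lower, where 9.05% of all transcripts were higher. FN1 differed by 0.67 (edgeR adjusted p = 1e-05), CD55 by 0.76 (9.6e-05) and HSPG2 by 0.56 (0.0063). LTBP1, which anchors latent TGF-β in the matrix, and PGAP1, an ER enzyme of GPI anchors, lay outside the list and were also called higher than in untreated cells. LTBP1 had 52.4 and 51.9 CPM in untreated cells, 69.9 and 69.4 CPM in Tm + ISRIB and 42.7 ± 0.96 CPM (SD, n = 2) in Tm, and PGAP1 had 35.2 and 29.7 CPM, 43.6 and 46.1 CPM and 28.7 ± 0.28 CPM. MIA3, which helps load large cargo at ER exit sites, rose from 90.4 and 86.0 CPM to 109 and 111 CPM. The genes of ER glycosylation, folding and degradation had a median of 0.12, with 19 of 25 above 0 and 0 called. DDOST, a subunit of the oligosaccharyltransferase that Tm starves of substrate, had 388 and 372 CPM against 481 and 409 CPM (0.23 ± 0.08, adjusted p = 0.20) and 282 ± 49 CPM in Tm.

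Several of these genes are long, and RPF changes followed coding length over all transcripts. The median log2 fold change was -0.10 for the 446 transcripts under 100 counted codons, -0.06 from 100 to under 200, -0.04 from 200 to under 400, 0.00 from 400 to under 800, 0.05 from 800 to under 1600 and 0.14 for the 595 of 1600 codons and over. Of the longest class, 59 were called higher (9.92%) and 0 lower, and 83.5% of its values were above 0. Of the 1964 transcripts under 200 codons, 9 were called higher and 52 lower. BIRC6, a giant ubiquitin ligase with 4838 counted codons, had 249 and 239 CPM in untreated cells and 303 and 289 CPM in Tm + ISRIB. UBR4, another giant ubiquitin ligase and the named rise with the most counts, had 393 and 417 CPM against 546 and 490 CPM. SPEN, a transcriptional repressor, had 251 and 246 CPM against 353 and 292 CPM, and MACF1, a cytoskeletal crosslinker, 65.3 and 83.9 CPM against 141 and 113 CPM. VPS13D, a lipid transfer protein, SPTBN1, a spectrin, and LRP1B, a low-density lipoprotein receptor family member, were called higher with log2 fold changes of 0.42, 0.40 and 1.02.

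The longest class lay above the shortest in all 4 single-library ratios of Tm + ISRIB to untreated. Medians of the longest class ranged from 0.10 to 0.18 and those of the shortest from -0.14 to -0.03. In the ratio of Tm + ISRIB b to untreated a, the order was broken at the short end, with -0.03 under 100 codons and -0.04 from 100 to under 200. Libraries of the same treatment also differed with length, by -0.05 to 0.03 between the untreated replicates and by -0.04 to 0.06 between the Tm + ISRIB replicates from the shortest to the longest class. Across transcripts, which are not independent replicates, Spearman's rho of the change with coding length was 0.24 for the fitted value (n = 12382). For ratios of single libraries, it was 0.13 to 0.24 between Tm + ISRIB and untreated and 0.08 for either replicate ratio. In Tm alone and ISRIB alone, against the same untreated libraries, the medians of the longest class were 0.11 and 0.03 and those of the shortest 0.05 and 0.01. The mRNA changes ran in the opposite direction, from 0.09 in the shortest class to -0.17 in the longest. Without Tm + ISRIB replicate a, the RPF medians were -0.08 and 0.11 and 3 transcripts of the longest class were called. When the trend over length was removed from each library, 231 transcripts were called, of which 10 of the longest class were higher. CD55, ROR1 and JUN were among the calls that remained, whereas FN1, HSPG2, LAMC1, CELSR2, UBR4 and BIRC6 were not called.

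**Figure D4:**
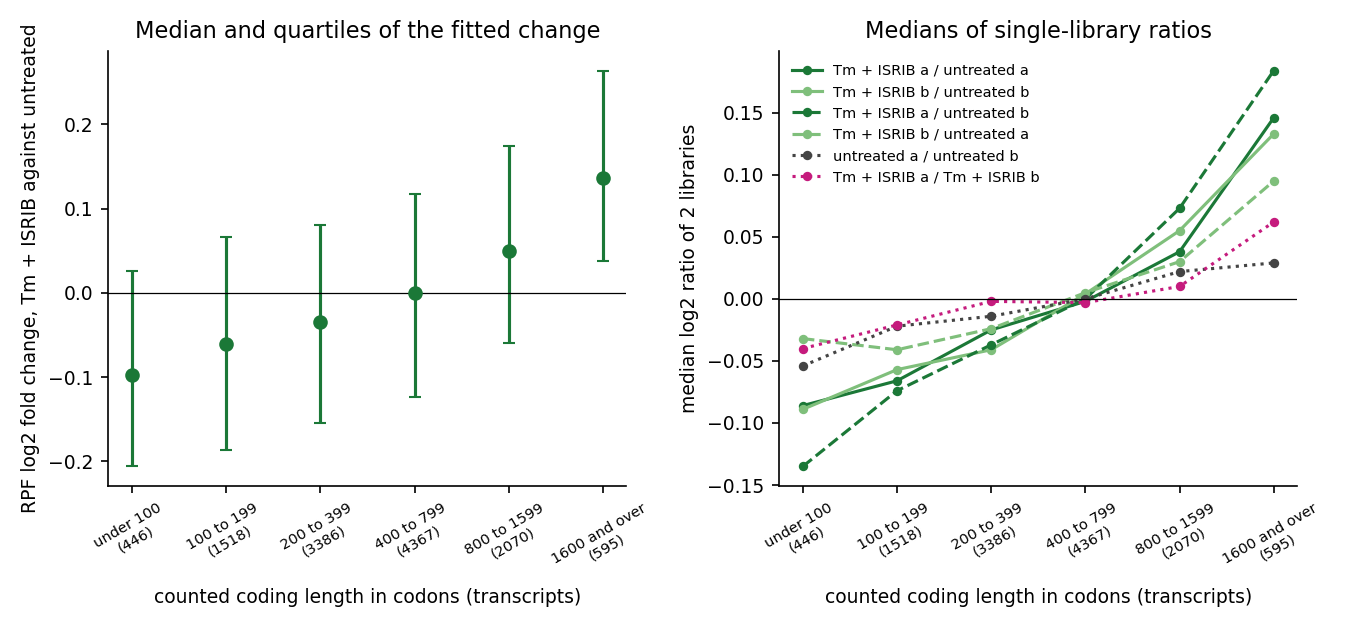
Left, median RPF log2 fold change with quartiles (y-axis) by class of counted coding length (x-axis, number of transcripts in brackets). Right, medians of the log2 ratio of single libraries, where solid and dashed lines compare Tm + ISRIB with untreated libraries and dotted lines compare replicates, and all lines are higher in the longest than in the shortest class.

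Footprint density, the mean normalised count per kilobase of coding sequence, had less to do with the change. The median log2 fold change went from 0.04 in the lowest quintile to 0.01, -0.01, -0.01 and -0.02 in the next quintiles. Of the lowest quintile, 61 transcripts were called higher and 4 lower, and of the highest quintile 23 were higher and 68 lower. Of the 49 rises above 2-fold, 41 were in the lowest quintile. Within every quintile, transcripts of 800 to under 1600 codons had a median above 0 and those of 100 to under 200 codons a median below 0. GC content was available for the 1867 transcripts (93.8% of those with a symbol) that matched GENCODE by symbol and coding length. Their median log2 fold change went from 0.07 in the quintile of lowest GC to -0.10 in the quintile of highest GC. The 2 untreated libraries differed by GC in the same way, with median log2 ratios of replicate a to b of 0.09 and -0.10. In ratios of libraries with the same letter, the medians of these quintiles were 0.00 and 0.00 for replicate a and 0.13 and -0.16 for replicate b, so the same-letter ratios showed the GC order for replicate b and not for replicate a. The median GC content of the histone transcripts was 63.3%, within the highest quintile (58.3 to 75.5%). The part that GC content plays in their falls was not tested.

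Housekeeping classes stayed close to untreated levels. The 13 cytosolic ribosomal protein transcripts, all called lower in Tm alone (where 6.58% of all transcripts were), had log2 fold changes from -0.04 to 0.17 with a median of 0.06, and 0 were called. Their summed level was 12877 and 13667 CPM in untreated cells, 13626 and 13875 CPM in Tm + ISRIB and 9271 and 9710 CPM in Tm. Against Tm, all 13 were higher in Tm + ISRIB. Their mRNA had a median log2 fold change of 0.23 in Tm + ISRIB against untreated cells, with 5 of 13 called higher (7.49% of all transcripts tested were) and 0 lower. The median share of their windows that occur in other genes was 79.4%. Mitochondrial ribosomal proteins had a median of -0.08, with 16 of 20 below 0 and AURKAIP1 the 1 of 20 called. Aminoacyl-tRNA synthetases, which charge tRNAs, had a median of -0.01 and 0 of 11 called, and EPRS, the one with the most counts, had 422 and 387 CPM against 460 and 452 CPM. The respiratory chain had a median of -0.05 with 11 of 12 below 0 and 0 of 12 called. It is represented by the ATP synthase subunit ATP5F1 with 456 and 463 CPM against 452 and 445 CPM. Proteasome and chaperonin subunits had a median of 0.04 with 0 of 12 called, and HSPD1, the mitochondrial chaperonin, had 2037 and 2161 CPM against 2267 and 2187 CPM.

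Mitosis genes had a median of 0.02 with 0 of 22 called, and CENPF, a kinetochore protein, had 390 and 379 CPM against 432 and 435 CPM. Splicing factors had a median of -0.05, with the short PRPF38A transcript the 1 of 24 called. ISR sensors and initiation factors had a median of 0.04 with 0 of 14 called, and the eIF3 subunit EIF3I had 715 and 677 CPM against 691 and 684 CPM. The genes that ATF4 is known to induce had a median of -0.06 with 0 of 9 called. PHGDH, the first enzyme of serine synthesis, had 3365 and 4843 untreated counts against 2588 and 2506 with both compounds, a log2 fold change of -0.035 ± 0.07. The levels of EIF3I and PHGDH overlapped between groups. The median standard error of a transcript ranged from 0.066 in the cytosolic ribosomal proteins to 0.30 in the known ISR targets among these classes without a call, and a change had to be several times its standard error to pass, as DDOST at 0.23 ± 0.08 did not.

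**Figure D5:**
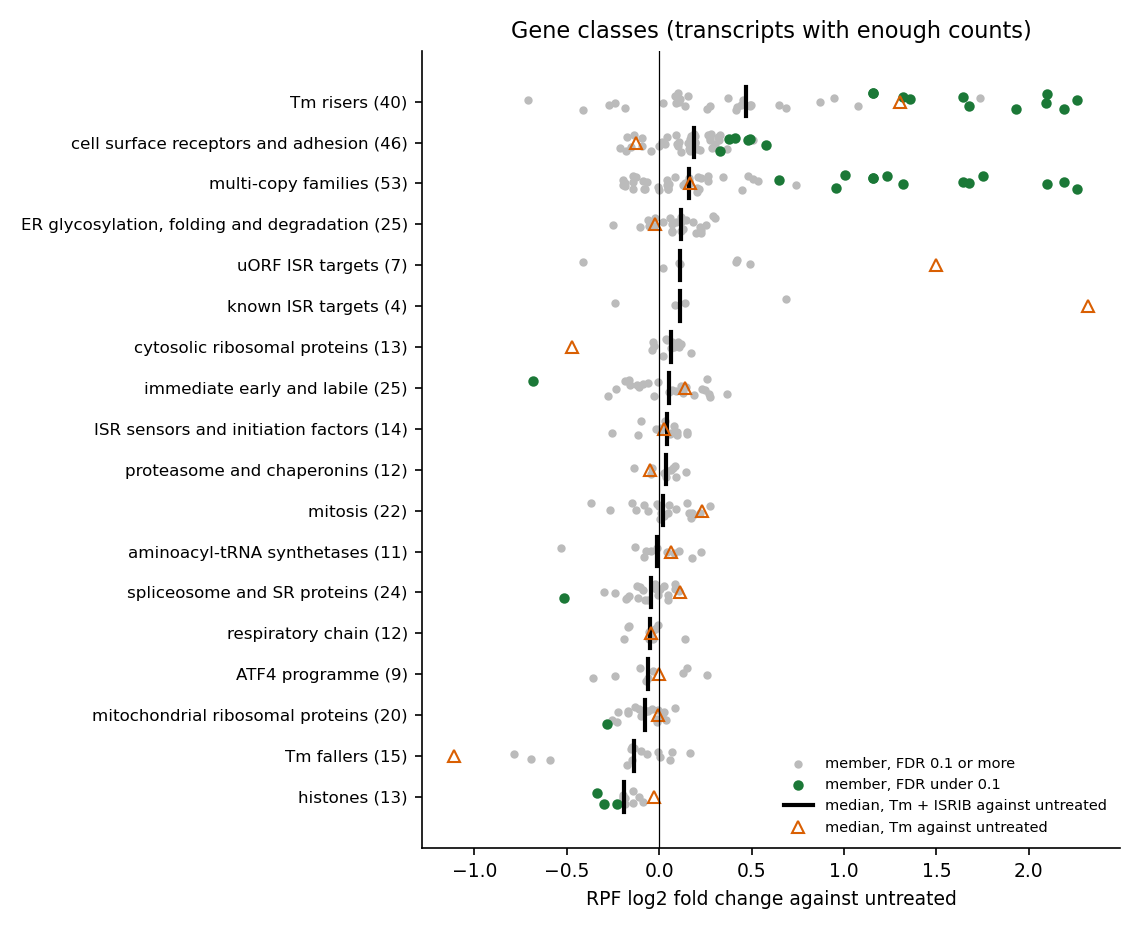
RPF log2 fold change against untreated cells (x-axis) of the members of each gene class (y-axis, number of transcripts in brackets), 1 point per transcript, green where the FDR is under 0.1. Black bars are class medians in Tm + ISRIB and open triangles those in Tm alone, and the distance between them is widest for the ISR targets and the lists taken from Tm.

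RPF and mRNA changes had the same sign for 99 of the 283 called transcripts with an mRNA value. Over all transcripts with an mRNA value, this held for 5419 of 11099. In mRNA-Seq, 1523 of 12013 transcripts (12.7%) were called between the same treatments, from other libraries of the same lysates, 900 higher and 623 lower. With total counts in place of TMM, 654 were higher and 890 lower, and the median of all mRNA changes was -0.05. Of the 171 transcripts with higher RPFs and an mRNA value, 13 were called higher in mRNA and 16 lower, with a median mRNA log2 fold change of -0.10. Of the 112 with lower RPFs, 27 were called higher in mRNA and 6 lower, with a median of 0.15. Among all 11099 transcripts with an mRNA value, 891 were called higher in mRNA and 589 lower. The 13 and the 6 called in the direction of their RPFs were near those shares. The called rises had a median of 849 counted codons and the called falls 243, and RPF and mRNA medians ran oppositely with length over all transcripts. The part that length plays here was not tested. The mRNA calls fell to 0 without untreated replicate b and to 36 without Tm + ISRIB replicate a, with 1708 and 1631 at an unadjusted p under 0.05.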

How the data were processed

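The authors deposited raw read counts per UCSC transcript, taken within the coding sequence, with the number of codons counted, for 8 Ribo-Seq and 8 mRNA-Seq libraries. They did not normalize the counts or pool replicates. Their processing notes name hg19, CASAVA 1.8, Bowtie 1.0.0 and TopHat2 2.0.7 and 2.0.10. How reads matching several copies were assigned is not given in the sources used here. Transcripts without a coding length (10328 of 31848) held no counts. The members, lists and tests were chosen with earlier results of these data known.

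Counts of members were fitted over the 8 libraries of an assay with edgeR 4.0.16 (R 4.3.3), using TMM, glmQLFit, glmQLFTest and Benjamini-Hochberg adjustment, without a replicate block. Across transcripts edgeR estimated a biological coefficient of variation of 5.71% for footprints and 6.72% for mRNA. Levels are CPM of TMM-scaled libraries, and standard errors were derived from the fold change and its F statistic. Single-library ratios add 0.1 CPM. mRNA was joined by identifier without version and by length, which gave 11099 members a value. Scripts were tested on simulated data. Tables used Python 3.11.15 and pandas 2.3.3.

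Replicates of a treatment differed beyond sampling noise (chi-square per degree of freedom of 5.12 for untreated and 2.13 for Tm + ISRIB). Counts do not tell PCR copies from separate fragments, so intervals cover the spread edgeR estimated only. Symbols come from the study's source data, and sequences from GENCODE v29 (GRCh38), not the files' build. A symbol was matched when the annotated codons exceeded the counted ones by 20.

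Named genes are the ISR targets, the study's list for this comparison, the 10 largest called rises and falls with a symbol and groups apart, up to 4 called members of each class (otherwise the member with the most counts) and the called transcript of highest count in each direction. Other called transcripts with a symbol and further class members were named after their values were seen. The ribosomal protein this rule selects and 1 called transcript are not reported by name. Alternatives were other scalings, DESeq2 1.42.0, the 4 libraries alone, a replicate block, other filters and leaving out each library. A length-trend offset and, for mRNA, a crossed block were added after seeing the data.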

Additional observations from a re-analysis of the deposited data

How the results depend on the processing

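The number of transcripts with changed RPFs (324) moved most with single libraries, from 20 to 697 when each of the 4 was left out, which leaves a group with 1 library assumed to vary like the others. Over the same fits, rises ranged from 12 to 321, falls from 8 to 376, changes above 2-fold from 4 to 74, and called members of the 16 gene classes from 1 to 47 instead of 25. DESeq2's Wald test called 89 transcripts (49 higher, 40 lower), 0 of them above 2-fold, where edgeR called 55, and had 734 at an unadjusted p under 0.05. DESeq2 gave an adjusted p to only 27 of the 50 called transcripts with a symbol. Named rises above 2-fold such as STARD9 and AGAP4 had none, so the 0 is partly a lack of adjusted p values. Fitting only the 4 libraries compared gave 200 (125 higher, 75 lower), and dropping the filter on low counts gave 215 falls. RLE scaling, total counts and the filter in all 4 libraries stayed within 1.5 times of each count. With the replicate block, 364 transcripts were called, 319 of them among the 324. The letters a and b are not stated to mark a shared day or batch, and deviations of same-letter libraries correlated at 0.06 in Ribo-Seq. The mRNA calls (1523) were 784 with DESeq2, 2989 with the 4 libraries alone, 2466 without the filter, 2022 with the replicate block and 0 to 280 with a library left out. Same-letter mRNA libraries correlated at -0.13, and a crossed replicate block, added after seeing the data, called 945. The difference between the longest and shortest length class (0.24) stayed between 0.19 and 0.29 with a library left out and was 0.013 with the length-trend offset, added after seeing the data, which removes it by construction. All 50 called transcripts with a symbol kept their sign in every fit that tested them. Of these, 43 remained called without untreated replicate a, 16 without untreated replicate b, 1 without Tm + ISRIB replicate a and 38 without Tm + ISRIB replicate b. Other causes of these shifts were not tested. With 2 replicates, low counts limit what can be seen.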
